A study of Mus musculus with 12 samples.

Results

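The expression of BMP4 and its pathway to the Id genes was followed through 5 knockdowns (KDs) of chromatin regulators in mouse embryonic stem (ES) cells. The 9 genes were chosen by symbol, as the ligand Bmp4, the receptor Bmpr1a, the signal transducers Smad1 and Smad5, the inhibitor Smad6 and the targets Id1, Id2, Id3 and Id4, and all 9 were among the 29546 genes tested. E14 ES cells, an established mouse line, were grown without feeders on gelatin with serum and LIF, and RNA was taken 48 h after transfection of esiRNAs (pools of short interfering RNAs made by enzymatic digestion). There were 12 one-colour Agilent arrays, 2 for each of 6 groups, namely control (EGFP KD, aimed at a gene the cells lack) and the KDs of Mbd3, Chd4, Mbd2, Dnmt1 and Tet1. The knockdowns were transient and in 1 cell line, and the study's methods call the 2 arrays of a group biological replicates. Dnmt1 maintains DNA methylation, Tet1 oxidises methylated cytosine, Mbd2 binds methylated CpGs, and Mbd3 and Chd4 are a scaffold subunit and the remodelling ATPase of the NuRD complex.

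BMP4 is a secreted ligand of the TGF-beta family. It binds type I and type II receptors such as Bmpr1a, which phosphorylate Smad1 and Smad5. These join Smad4 and enter the nucleus, where the Id genes are among their best known targets, while Smad6 blocks the pathway at the receptor and is itself induced by it. Id proteins have a helix-loop-helix domain without the basic region that binds DNA, and they hold E proteins and other basic helix-loop-helix factors off their sites. In mouse ES cells BMP4 is known to act through Id genes, together with LIF, to hold back neural differentiation.

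The sequences upstream of the 3 genes with the largest differences among these 9 are shown for orientation. They are the 250 bases before the annotated start of Smad6, Id2 and Id4, read from RefSeq (build GRCm38.p6) in the direction of transcription, with capitals marking GGCGCC, a palindrome that Smad1 and Smad5 are known to bind.
Smad6 (chr9:64022060-64022309, minus strand): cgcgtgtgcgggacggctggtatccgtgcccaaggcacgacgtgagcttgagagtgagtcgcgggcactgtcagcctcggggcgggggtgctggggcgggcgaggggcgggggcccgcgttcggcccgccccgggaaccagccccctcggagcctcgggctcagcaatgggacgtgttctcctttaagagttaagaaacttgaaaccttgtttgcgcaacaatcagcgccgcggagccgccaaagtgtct
Id2 (chr12:25096093-25096342, minus strand): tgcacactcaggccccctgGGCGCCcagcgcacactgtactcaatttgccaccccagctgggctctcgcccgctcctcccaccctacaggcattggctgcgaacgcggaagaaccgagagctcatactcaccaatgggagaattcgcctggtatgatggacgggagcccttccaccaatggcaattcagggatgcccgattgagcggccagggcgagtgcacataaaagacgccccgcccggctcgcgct
Id4 (chr13:48260866-48261115, plus strand): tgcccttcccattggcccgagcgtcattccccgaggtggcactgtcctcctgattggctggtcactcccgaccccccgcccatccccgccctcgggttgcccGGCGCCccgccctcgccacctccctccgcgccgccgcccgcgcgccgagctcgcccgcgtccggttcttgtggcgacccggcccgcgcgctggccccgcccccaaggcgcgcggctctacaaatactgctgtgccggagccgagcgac
Searched on both strands (the motif is its own reverse complement), GGCGCC stood once in Id2, with its first base 231 bases before the start, and once in Id4, 148 bases before it. It was not among the letters of the Smad6 window. Of the 8 members with an upstream sequence in the table, 4 held the motif upstream of 1 annotated start (Bmpr1a, Smad5, Id2 and Id4), which is 4 of their 10 upstream sequences, against 9.59% of all 32851 upstream sequences. The windows were rich in G and C, at 66.8% for Smad6, 62.8% for Id2 and 75.6% for Id4 beside a median of 52.4% over all. The arrays measure RNA and not binding at these sites.

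All values below are log2 of a spot's background-corrected signal over the 75th percentile of its array, so a step of 1 is a doubling, and levels are compared within a gene only. The 75th percentile lay between 1784.5 and 2451.6 on the 12 arrays, and the number of arrays limits the precision. Knockdown of the targeted genes was read first. On the arrays labelled for them, Mbd3 differed from EGFP KD by -2.96 (adjusted p = 0.0039 by limma), Chd4 by -1.28 (adjusted p = 0.042 by limma) and Dnmt1 by -1.99 (adjusted p = 0.39 by limma). The brighter Tet1 probe read 2.14 and 2.00 in EGFP KD. Of the arrays labelled Tet1 KD, replicate 1 read 2.05 and replicate 2 read 0.25, and of those labelled Mbd2 KD, replicate 1 read 0.28. The dimmer Mbd2 probe read -0.83 and -1.09 in EGFP KD. It was at -1.20 in replicate 1 and -2.73 in replicate 2 of the arrays labelled Mbd2 KD, and at -2.71 in replicate 1 of those labelled Tet1 KD. The brighter Mbd2 probe, which stands for the gene, read -0.71 and -0.83 in EGFP KD and -0.85 on both arrays labelled Mbd2 KD (94.9% of EGFP KD), so neither of these was low on it. Replicate 1 of the arrays labelled Tet1 KD, and of those labelled Mbd2 KD, thus went against its label, and results are also given without these 2 arrays. ES cell markers were bright, with Pou5f1 and Zfp42 saturated on 11 arrays each, although the Nanog probe was well above background on 10 arrays and close to the floor throughout.

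Of the 9 genes, Smad6 in Mbd3 KD was called (limma, Benjamini-Hochberg adjusted p under 0.05 over all 29546 genes), and 0 were called in Chd4 KD, Mbd2 KD, Dnmt1 KD or Tet1 KD. The share called over all genes was 0.762% in Mbd3 KD (0.288% lower) and 3.2% in Chd4 KD, and 0% in the other KDs. At an unadjusted p under 0.05 the counts for Mbd3, Chd4, Mbd2, Dnmt1 and Tet1 KD were 3, 3, 0, 0 and 1, beside 9.66%, 12.8%, 2.06%, 4.67% and 2.85% of all genes. The median log2 difference of the 9 genes was -0.27 in Mbd3 KD, where that of all genes was -0.03, and 0.08 in Chd4 KD, where that of all genes was 0. For Mbd2, Dnmt1 and Tet1 KD the medians of the 9 were -0.0027, 0.022 and -0.069, beside -0.0037, -0.015 and 0.085 over all genes. Counted by arrays that do not overlap with EGFP KD, 4 members stood apart in Mbd3 KD, 4 in Chd4 KD, 2 in Mbd2 KD, 5 in Dnmt1 KD and 3 in Tet1 KD, beside 30.1%, 38.1%, 22.9%, 21.1% and 35.3% of all genes. The 4 in Mbd3 KD were all lower, as were 16.9% of all genes. Every probe that stands for a member was well above background and unsaturated on all 12 arrays.

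**Figure D1:**
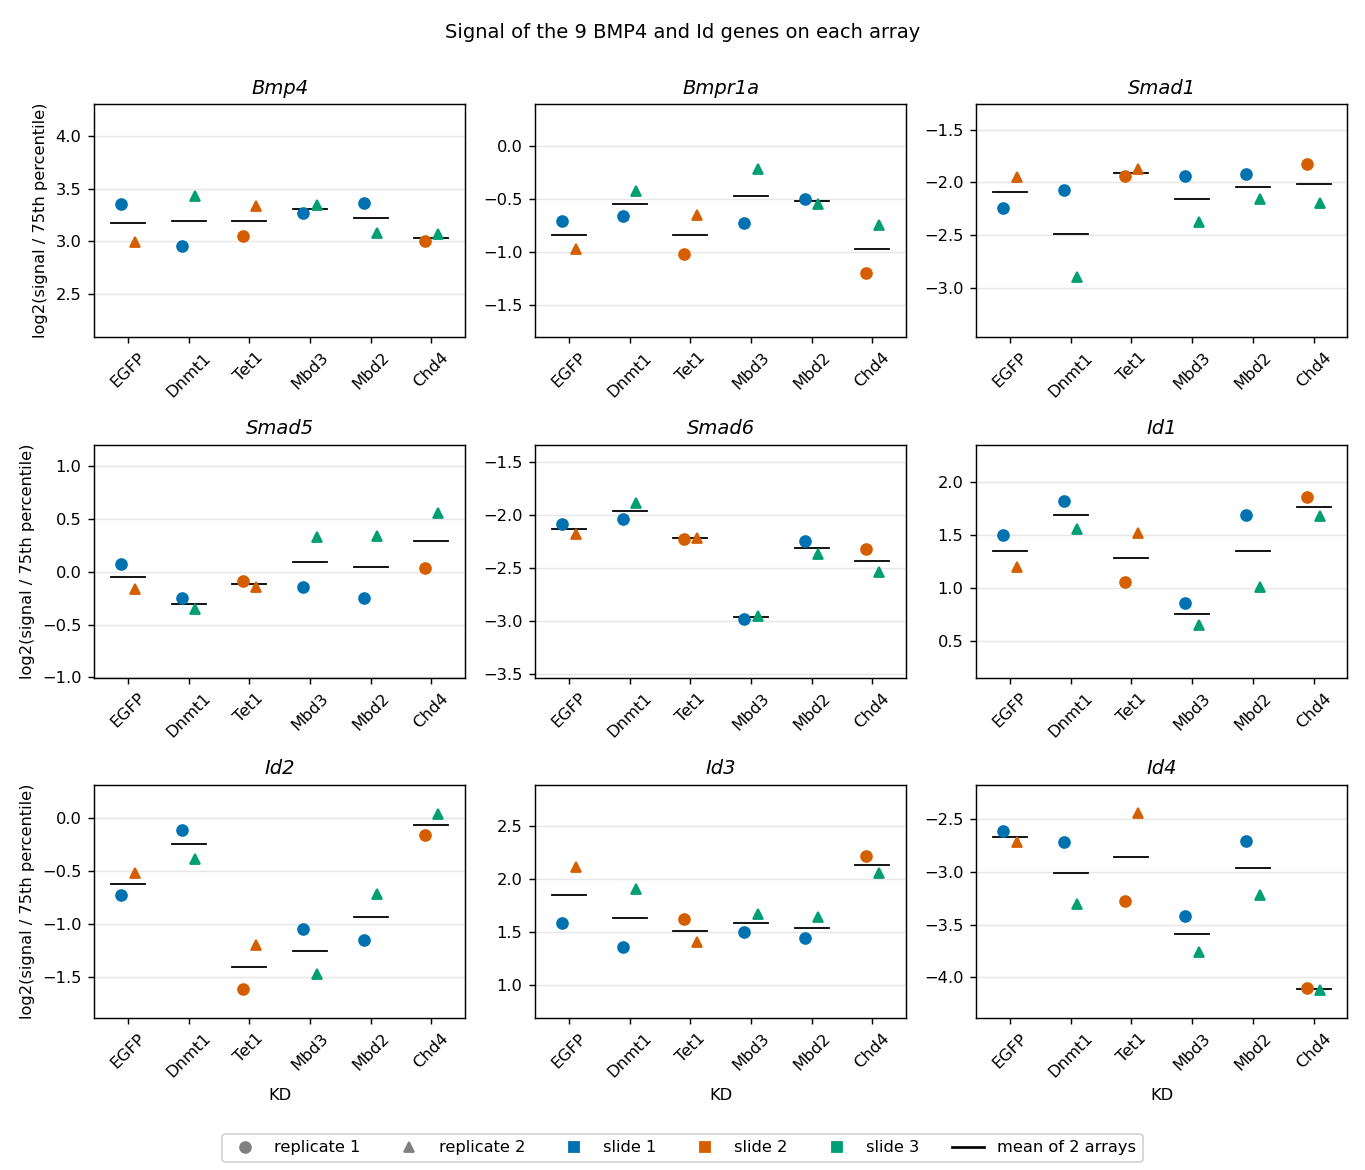
Log2 signal of the 9 genes on each of the 12 arrays (vertical axis, log2 of signal over the array's 75th percentile, each panel spanning 2.2 units) by KD group, with circles for replicate 1, triangles for replicate 2, colours for the slide and bars for the mean of 2 arrays. Smad6 stood at -2.98 and -2.95 on the Mbd3 KD arrays, below the other 10 arrays, and Id4 at -4.10 and -4.12 on the Chd4 KD arrays.

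Smad6, the inhibitory Smad, was the member that was called, and with 2 arrays per group the members not called are not shown to be unchanged. It read -2.09 and -2.18 on the EGFP KD arrays and -2.98 and -2.95 on the Mbd3 KD arrays. The Mbd3 KD arrays were the lowest 2 of the 12 and did not overlap with any other group. Smad6 fell by 0.83 on the log2 scale in Mbd3 KD (SE, the standard error, 0.10, n = 2 arrays per group, adjusted p = 0.028 by limma), to 56.2% of the signal in EGFP KD. On slide 1, which held replicate 1 of both groups, the difference was -0.89, while replicate 2 of Mbd3 KD lay on slide 3, which carried no EGFP KD array. With the slide as a block the difference was -0.79 and the call was lost (adjusted p = 0.083 by limma). Without the 2 arrays that went against their labels the difference was the same -0.83 with an adjusted p of 0.12, and leaving out either EGFP KD array gave 0.14 and 0.095. With only the 4 arrays of the comparison it was 0.48.

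In the other KDs Smad6 read -2.31 and -2.54 in Chd4 KD, both below the EGFP KD arrays, a difference of -0.29 (SE 0.10, adjusted p = 0.26 by limma). It read -2.03 and -1.89 in Dnmt1 KD, both above EGFP KD, and the difference was 0.17 (adjusted p = 0.94 by limma). On the arrays labelled Tet1 KD it read -2.22 and -2.21, and on those labelled Mbd2 KD -2.24 and -2.37. These lay below EGFP KD by 0.08 and 0.17, neither called (adjusted p = 1 for both by limma). From high to low the groups as labelled stood in the order Dnmt1 KD, EGFP KD, Tet1 KD, Mbd2 KD, Chd4 KD and Mbd3 KD. Arrays of neighbouring groups were apart except between Mbd2 KD and Chd4 KD. The groups labelled Tet1 KD and Mbd2 KD each hold a replicate 1 array that went against its label. The difference between Chd4 KD and Mbd3 KD was 0.54 (SE 0.10, adjusted p = 0.069 by limma), and that between Mbd3 KD and Mbd2 KD was -0.66 (adjusted p = 0.057 by limma), so neither passed the test. Between Mbd3 KD and Mbd2 KD 0 members were called, beside 0.521% of all genes, and Smad6 was the 1 member with an unadjusted limma p under 0.05, beside 6.87%. The arrays of 3 members (Smad6, Id1 and Id4) did not overlap between these groups, as for 21.6% of all genes. Over the 6 groups together, an F-test called Smad6 (adjusted p = 0.026 by limma) and none of the other 8 members, beside 2.24% of all genes, and Id2 followed at 0.093.

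**Figure D2:**
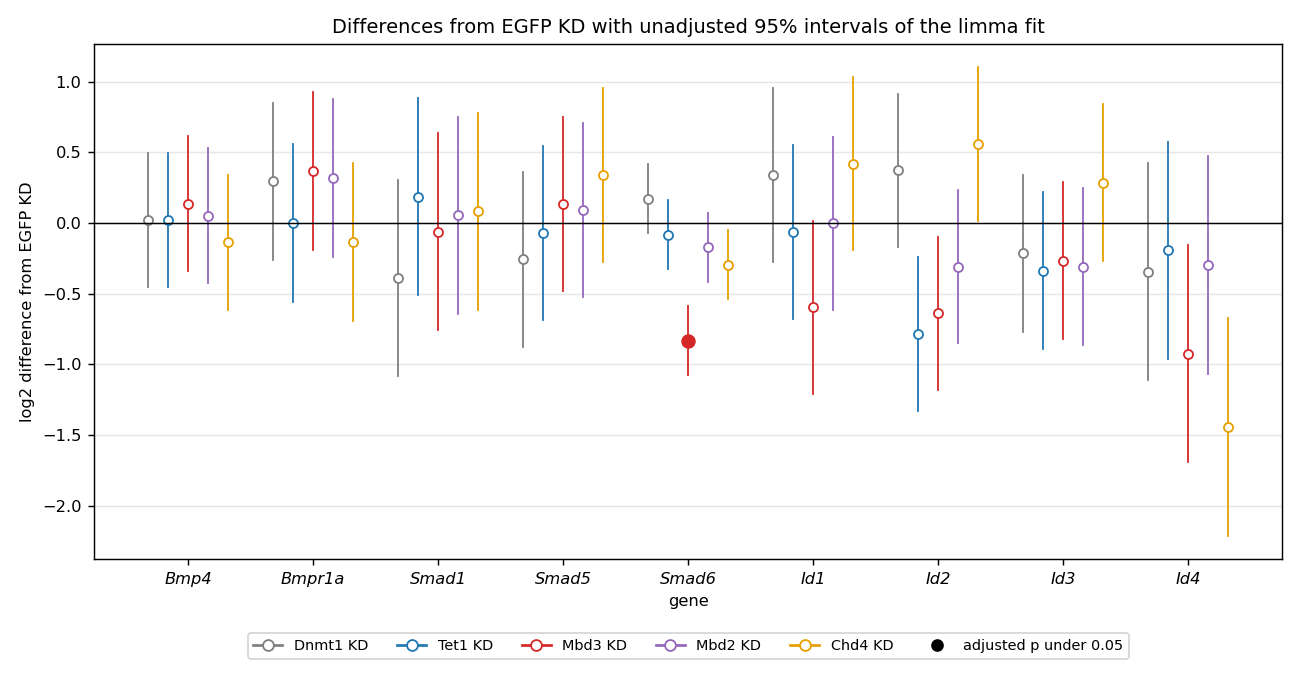
Log2 difference from EGFP KD (vertical axis) for each of the 9 genes in the 5 KDs, with bars for the unadjusted 95% interval of the limma fit (n = 2 arrays per group) and a filled point where the adjusted p was under 0.05. Smad6 in Mbd3 KD, at -0.83, is the filled point, and the interval of Id4 in Chd4 KD runs from -2.21 to -0.68.

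The Id genes did not pass the test in any KD, and their values are given as measured. In Mbd3 KD all 4 had negative differences, with a median of -0.62. In Chd4 KD Id1, Id2 and Id3 had positive differences and Id4 a negative one, with a median of 0.35. On the arrays labelled Tet1 KD and Mbd2 KD all 4 differences were negative, with medians of -0.27 and -0.30, and in Dnmt1 KD 2 were positive and 2 negative. The signs in Chd4 KD were the same under each scaling tried, whereas Id3 in Mbd3 KD, Id1 in Tet1 KD and Id1 in Mbd2 KD turned positive under normexp background correction (0.012, 0.11 and 0.24), and the latter 2 also under quantile normalization (0.033 and 0.030). A positive sign alone was common, since 15168 of all genes had one in Chd4 KD, and 13625 in Mbd3 KD.

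Id1 read 1.50 and 1.20 in EGFP KD, 0.85 and 0.65 in Mbd3 KD, and 1.86 and 1.68 in Chd4 KD. The Mbd3 KD arrays were the lowest 2 of the 12, and the Chd4 KD arrays were both above EGFP KD. The difference was -0.60 in Mbd3 KD (SE 0.26, adjusted p = 0.54 by limma) and 0.42 in Chd4 KD (adjusted p = 0.66 by limma). Neither passed the threshold after adjustment over all genes, and the unadjusted limma p were 0.055 and 0.15. Against each other, Chd4 KD stood above Mbd3 KD by 1.02 (95% interval 0.40 to 1.63, limma adjusted p = 0.16). Dnmt1 KD gave 1.82 and 1.56, both above EGFP KD, a difference of 0.34. On the arrays labelled Tet1 KD Id1 read 1.06 and 1.52, and on those labelled Mbd2 KD 1.69 and 1.01, overlapping with EGFP KD in both.

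Id2 had the widest range among Id1, Id2 and Id3, at 1.65 over the 12 arrays, while the median range of all genes was 1.04. It read -0.72 and -0.52 in EGFP KD, -1.05 and -1.47 in Mbd3 KD, and -0.16 and 0.04 in Chd4 KD. These 3 groups did not overlap. The difference was -0.64 in Mbd3 KD (SE 0.23, adjusted p = 0.40 by limma) and 0.56 in Chd4 KD (adjusted p = 0.37 by limma), and Chd4 KD stood above Mbd3 KD by 1.20 (95% interval 0.66 to 1.74, limma adjusted p = 0.067). No member was called between Chd4 KD and Mbd3 KD, where 1.41% of all genes were, and 3 members (Smad6, Id1 and Id2) had an unadjusted limma p under 0.05, beside 10.1% of all genes. The arrays of 7 members did not overlap between Chd4 KD and Mbd3 KD, 4 higher and 3 lower in Chd4 KD, as for 32% of all genes. On the arrays labelled Tet1 KD Id2 read -1.61 and -1.20, both below EGFP KD, a difference of -0.79 (SE 0.23) that was past an unadjusted p of 0.05 but had a limma adjusted p of 1. Replicate 2 alone, whose Tet1 signal was low, differed by -0.58. Id2 on the arrays labelled Mbd2 KD, at -1.15 and -0.72, reached the EGFP KD range, and Dnmt1 KD, at -0.12 and -0.38, stood above it by 0.37 (adjusted p = 0.94 by limma).

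Id3 was spread widely in the control itself, at 1.58 and 2.11 in EGFP KD. In Chd4 KD it read 2.21 and 2.05, and in Mbd3 KD 1.49 and 1.67. Both overlapped with the control arrays, and the differences were 0.29 and -0.27 (adjusted p = 0.81 and 0.82 by limma). The other KDs lay between 1.36 and 1.91 and differed from EGFP KD by -0.22 in Dnmt1 KD, -0.34 on the arrays labelled Tet1 KD and -0.31 on those labelled Mbd2 KD. The Chd4 KD arrays were both above the Mbd3 KD arrays, by 0.55 on average (adjusted p = 0.50 by limma).

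Id4 was the member with the largest difference. It read -2.61 and -2.72 in EGFP KD, -4.10 and -4.12 in Chd4 KD, and -3.42 and -3.76 in Mbd3 KD. The Chd4 KD arrays were the lowest 2 and the Mbd3 KD arrays the next, with all other arrays above them. The difference was -1.44 in Chd4 KD (SE 0.33, limma adjusted p = 0.073), which is 36.8% of the EGFP KD signal and did not pass the adjusted threshold. In Mbd3 KD it was -0.92 (SE 0.33, limma adjusted p = 0.39). On slide 2 the difference of Chd4 KD replicate 1 from the EGFP KD array was -1.38, and on slide 1 that of Mbd3 KD replicate 1 was -0.81. Dnmt1 KD read -2.72 and -3.31, the arrays labelled Tet1 KD -3.28 and -2.45, and those labelled Mbd2 KD -2.71 and -3.22, and each group overlapped with EGFP KD. Thus Id4 was low in Chd4 KD while Id1, Id2 and Id3 had positive differences there. Across the 12 arrays the Pearson correlation of Id4 was -0.61 with Id3, -0.25 with Id2 and 0.11 with Id1. It was 0.66 for Id1 and Id2, 0.53 for Id2 and Id3 and 0.17 for Id1 and Id3. These describe arrays that share controls and slides.

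The authors' deposited table, which holds 7 of the 9 genes (not Bmp4 or Bmpr1a) as values relative to EGFP KD on a compressed scale, gave other counts. Tested against 0 with limma, it called 4 members in Mbd3 KD (Smad6, Id1, Id2 and Id4, all lower) and 5 in Chd4 KD (Smad6 and Id4 lower, and Id1, Id2 and Id3 higher), and 0 for Mbd2, Dnmt1 and Tet1 KD, where it called 0.404%, 14.4% and 0.754% of all genes. Smad6 had a value of -0.079 in Mbd3 KD (adjusted p = 0.0038 by limma) and Id4 one of -0.16 in Chd4 KD (adjusted p = 0.0011 by limma). That test leaves out the spread of the control arrays, which the values above include, and it called 46% of the 7425 genes of that table in Mbd3 KD and 56.7% in Chd4 KD, so that 4 of 7 and 5 of 7 members stand near the share of all genes there.

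The upstream members Bmp4, Bmpr1a, Smad5 and Smad1 were not called in any KD. Bmp4, the ligand, read 3.35 and 2.99 in EGFP KD and between 2.96 and 3.43 on the other arrays. No KD stood apart from the control, and the differences ran from -0.14 in Chd4 KD to 0.14 in Mbd3 KD (SE 0.20, with limma adjusted p between 0.90 and 1). The 95% interval in Chd4 KD was -0.61 to 0.34, and in Mbd3 KD -0.34 to 0.61. Its range of 0.47 over the 12 arrays was at percentile 9.64 of all genes. A second Bmp4 probe was not well above background on any array and was left out.

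Bmpr1a, the type I receptor, read -0.70 and -0.97 in EGFP KD, -0.72 and -0.21 in Mbd3 KD, and -1.19 and -0.75 in Chd4 KD. It overlapped with EGFP KD in both, with differences of 0.37 and -0.14 (adjusted p = 0.77 and 0.93 by limma). Dnmt1 KD, at -0.66 and -0.42, and the arrays labelled Mbd2 KD, at -0.49 and -0.54, were above both control arrays, by 0.29 and 0.32 on average (adjusted p = 0.94 and 1 by limma). The arrays labelled Tet1 KD, at -1.02 and -0.64, had a difference of 0.00.

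Smad5 read 0.07 and -0.16 in EGFP KD and between -0.36 and 0.56 elsewhere. Its differences ran from -0.26 in Dnmt1 KD, where both arrays were below the control, to 0.34 in Chd4 KD, where they overlapped with it (adjusted p = 0.94 and 0.79 by limma). A second, dimmer Smad5 probe differed by between -0.12 in Dnmt1 KD and 0.14 on the arrays labelled Mbd2 KD, and was not called.

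The 2 probes of Smad1, the other receptor-activated Smad, disagreed in Chd4 KD. The brighter probe, which stands for the gene, read -2.24 and -1.95 in EGFP KD and -1.83 and -2.20 in Chd4 KD, an overlap with a difference of 0.08 (SE 0.29, adjusted p = 0.99 by limma). The dimmer probe read -3.39 and -3.36 in EGFP KD and -2.55 and -2.22 in Chd4 KD. There both Chd4 KD arrays were the highest of the 12, with a difference of 0.99 (SE 0.21, limma adjusted p = 0.065 over all probes). The brighter probe also gave -2.07 and -2.90 in Dnmt1 KD, where the dimmer one gave -3.27 and -2.92, so the sign differed between the probes there as well, at -0.39 and 0.28.

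**Figure D3:**
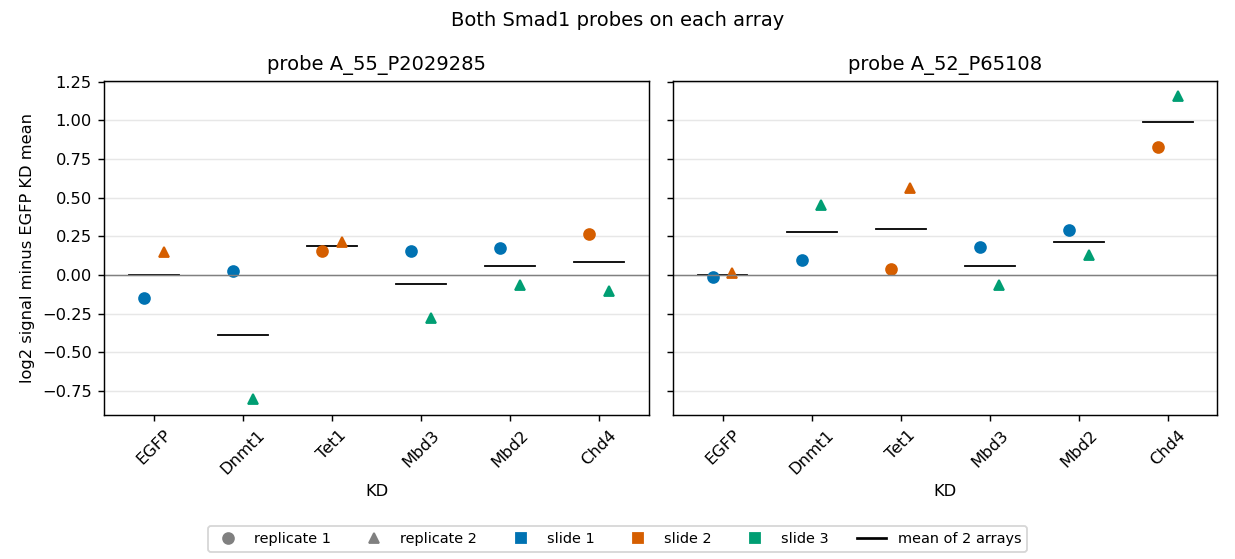
Log2 signal of both Smad1 probes on each array, as the difference from that probe's EGFP KD mean (vertical axis), by KD group, with the brighter probe on the left and the dimmer on the right. In Chd4 KD the bars (mean of 2 arrays) stand at 0.08 for the brighter probe and 0.99 for the dimmer.

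Of the 53 other BMP pathway genes listed, 50 were tested, and all but Gdf6, Smad9 and Cer1 were thus covered. In Mbd3 KD 1 was called, lower, beside 0.762% of all genes, and in Chd4 KD 4 were called, 1 higher and 3 lower, beside 3.2% of all genes (1.97% higher and 1.24% lower). For Mbd2, Dnmt1 and Tet1 KD 0 were called (limma), and 2, 4 and 3 had an unadjusted p under 0.05, beside 2.06%, 4.67% and 2.85% of all genes. The median difference of the 50 was 0.05 in Mbd3 KD and 0.24 in Chd4 KD, with 27 and 35 above 0. For Mbd2, Dnmt1 and Tet1 KD it was 0.015, 0.018 and 0.16, with 30, 27 and 38 above 0. Of all 29546 genes, 13625, 15168, 14540, 14201 and 19318 were above 0 in Mbd3, Chd4, Mbd2, Dnmt1 and Tet1 KD. The medians of all genes there were -0.03, 0, -0.0037, -0.015 and 0.085.

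Among the ligands, Bmp7 read -2.20 and -2.09 in EGFP KD and -0.83 and -0.86 in Chd4 KD. It rose by 1.30 in Chd4 KD (SE 0.15, adjusted p = 0.0057 by limma) and stood 1.16 above Mbd3 KD (adjusted p = 0.015 by limma). Under normexp background correction the rise in Chd4 KD was 0.70 and the call was lost (adjusted p = 0.56 by limma). In Dnmt1 KD its difference was 0.76, not called (adjusted p = 0.38 by limma). Gdf3, a ligand of the same superfamily that is abundant in pluripotent cells, read 4.02 and 3.70 in EGFP KD and 2.57 and 2.65 in Chd4 KD, where it fell by 1.25 (SE 0.18, adjusted p = 0.014 by limma). In Mbd3 KD it read 3.09 and 3.52, a difference of -0.56 that was not called. Of 13 ligands tested, these were the ones called.

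Among the regulators, Zfp423, a zinc finger protein that works with Smads in BMP responses, read 0.41 and 0.20 in EGFP KD and -0.65 and -0.72 in Chd4 KD, and it fell by 0.99 there (SE 0.17, adjusted p = 0.028 by limma). The call was lost with the slide as a block (adjusted p = 0.060 by limma), and the mean of its probes gave -0.58 (adjusted p = 0.18 by limma). Hey1, a basic helix-loop-helix repressor that responds to Notch and BMP, read -0.73 and -1.01 in EGFP KD and -1.70 and -1.67 in Chd4 KD, and it fell by 0.81 (SE 0.16, adjusted p = 0.045 by limma). This call was lost with the slide (adjusted p = 0.084 by limma) or the replicate number as a block (adjusted p = 0.056 by limma) and under quantile normalization (adjusted p = 0.055 by limma). On the Hey1 probe every KD array lay below both EGFP KD arrays. Gata3, a transcription factor of trophoblast and other lineages, read -3.87 and -4.12 in EGFP KD and was not well above background on either Mbd3 KD array, where both stand at the floor of -4.86. That makes it at least 1.82-fold lower there (limma adjusted p = 0.035), and the call was lost with the slide as a block (adjusted p = 0.095 by limma). Arrays set to the floor have no spread between them, which lowers the error of the fit. With a lower floor the difference was -2.23 and the call was lost (adjusted p = 0.10 by limma). The floor gave the same difference in Dnmt1 KD and on the arrays labelled Tet1 KD, where 1 array of each was well above background. It was called in neither (adjusted p = 0.26 by limma in Dnmt1 KD). Gata3 was above the floor in Chd4 KD, at -3.59 and -3.88. Gata2, its relative, read -3.95 and -3.87 in Mbd3 KD and -3.41 and -3.31 in EGFP KD, a difference of -0.55 that was not called (adjusted p = 0.13 by limma). None of the 6 receptors, the 1 signal transducer (Smad4), the 7 inhibitors inside the cell or at the membrane, the 10 secreted antagonists or the 3 E proteins tested were called in any KD (limma), with unadjusted p under 0.05 for between 0 and 2 genes of each group in each KD. Without the 2 arrays that went against their labels the called pathway genes numbered 0 in Mbd3 KD and 2 in Chd4 KD, and the Chd4 KD count was 0 without EGFP KD replicate 1, 2 without EGFP KD replicate 2 or either Dnmt1 KD array, and 1 without either Chd4 KD array.

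**Figure D4:**
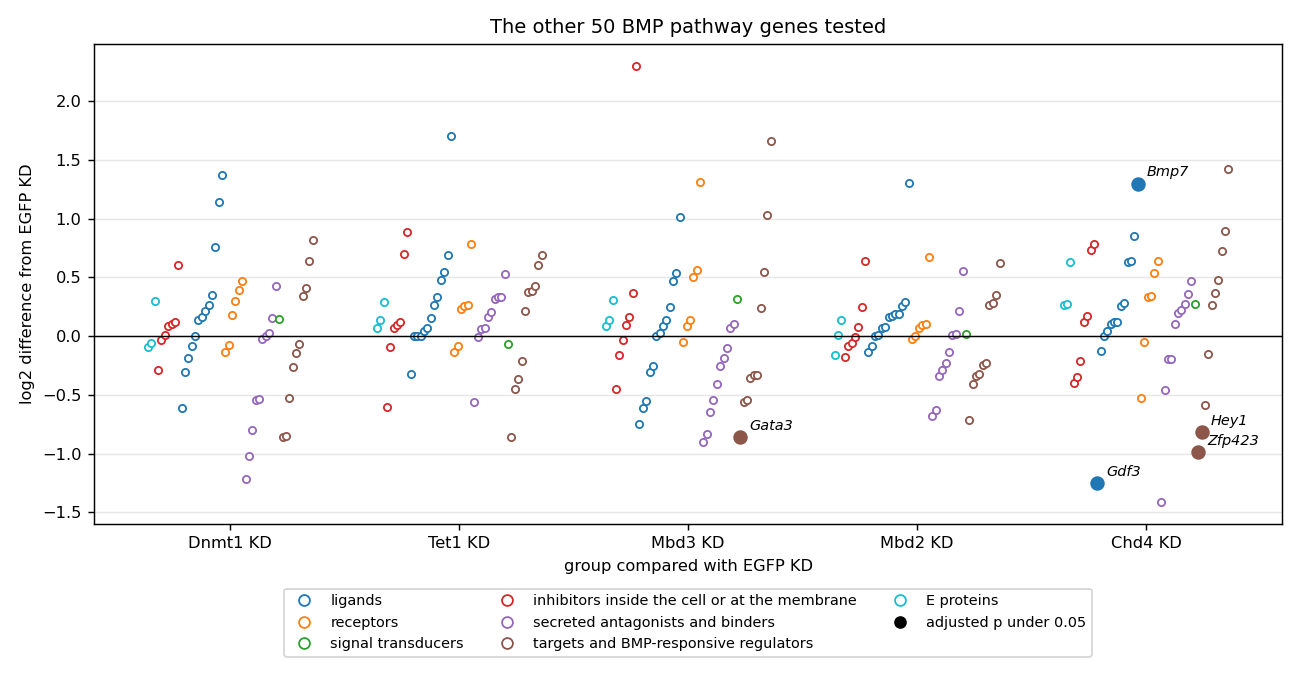
Log2 difference from EGFP KD (vertical axis) of the other 50 BMP pathway genes tested in each KD, coloured by role, with filled and named points where the limma adjusted p was under 0.05. The named points are Gata3 in Mbd3 KD, at -0.86 with both Mbd3 KD arrays at the floor, and Bmp7 at 1.30, Hey1 at -0.81, Zfp423 at -0.99 and Gdf3 at -1.25 in Chd4 KD.

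Markers of other cell types also differed between the KDs. The summed signal of 8 trophectoderm genes, in units of the 75th percentile, was 6.91 to 7.63 in EGFP KD, 11.5 to 11.8 in Mbd3 KD and 14.3 to 15.0 in Chd4 KD. Most of it came from Tfap2c and Krt18. Tfap2c was called higher in Mbd3 KD, by 0.80, and in Chd4 KD, by 1.05, and Krt18 in Chd4 KD, by 1.18, so that 1 of 8 and 2 of 8 were called (limma), beside 0.762% and 3.2% of all genes. Other genes of the list had negative differences in Mbd3 KD, namely Hand1 (-1.05), Cdx2 (-0.25) and Krt7 (-0.16), none called. Of its defining genes, Cdx2 was well above background on 8 arrays and Elf5 on 6, both close to the floor throughout. The sum of 5 fibroblast genes was 4.35 to 4.94 in EGFP KD, 9.01 to 9.19 in Mbd3 KD and 8.96 to 11.6 in Chd4 KD, and also above EGFP KD in Dnmt1 KD (6.36 to 6.79) and on the arrays labelled Tet1 KD (5.48 to 5.69). Most of it was Thy1, which was called higher in Mbd3 KD, by 1.28, and in Chd4 KD, by 1.42. Col1a1, near the floor in EGFP KD with a mean of -4.35, was called higher in Chd4 KD, by 2.49, so that 1 of 5 and 2 of 5 were called (limma). Only 2 of the 5 had positive differences in Mbd3 KD, and 2 of the 5 in Chd4 KD. The median differences of the 5 were -0.23 and -0.016, so the higher sums were not shared by most of these genes. The sum of 6 primitive streak and mesoderm genes was 2.62 to 3.29 in EGFP KD, and above that in Mbd3 KD (3.50 to 4.77), in Dnmt1 KD (3.31 to 4.70) and on the arrays labelled Tet1 KD (3.61 to 4.63), with 0 of 6 called in any KD (limma) and 0 at an unadjusted p under 0.05. Most of this sum was Kdr, whose log2 signal was 1.26 to 2.13 over the arrays. T was well above background on 2 arrays and Wnt3 on 6. The sums of 7 primitive endoderm and 5 neural genes were apart from EGFP KD on the arrays labelled Tet1 KD, at 1.73 to 1.93 against 0.962 to 1.68 and at 2.40 to 2.42 against 2.00 to 2.37. Single endoderm genes were higher in every KD at an unadjusted limma p under 0.05, and 0 were called. They numbered 2, 3, 1, 1 and 1 in Mbd3, Chd4, Mbd2, Dnmt1 and Tet1 KD, beside 9.66%, 12.8%, 2.06%, 4.67% and 2.85% of all genes. The median differences of the 7 were 0.13, 0.49, 0.05, 0.12 and 0.45. The sum of 9 ES cell genes, several of them saturated, was 163 to 186 in EGFP KD, 150 to 194 in Mbd3 KD and 148 to 178 in Chd4 KD. The part of these markers in the Smad6, Id and pathway values was not tested, and in bulk RNA fewer cells that express a gene and less RNA per cell cannot be told apart.

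The genes whose pattern over the 12 arrays was most like that of a member were sought among 15194 genes measured on all arrays. For Smad6 they were Wdr95, Fzd10 and Grrp1 (Pearson 0.95, 0.95 and 0.94), for Id1 Ror2, Mex3b and Ctsc (0.96, 0.95 and 0.94), and for Bmp4 Uqcrc2, Klk14 and Itsn2 (0.91, 0.90 and 0.86). By Spearman correlation the order differed, and Grrp1 stood at rank 380 and Wdr95 at rank 79 for Smad6, and Klk14 at rank 55 for Bmp4. These are the highest of many correlations over arrays that share groups and slides, and are given as a description.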

How the data were processed

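Mouse E14 ES cells were measured on 12 one-colour Agilent 4x44K arrays, 2 per KD, grouped by their labels. The authors deposited scanner output of Agilent Feature Extraction 10.7.1.1 (version as in the submitters' processing notes), and its processed signal is an intensity corrected for background within each array and with no step between arrays. A further deposited table holds log2 values relative to EGFP KD. Set against the scanner files, each column of that table correlated best with its own array (0.70 to 0.95) with the same direction and column medians between -0.006 and 0.004, but its spread was 0.12 to 0.14 of theirs, so its scale is not that of a log2 ratio of signals. Its exact normalization was not given in the sources used here, and it was used as an alternative only.

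From 43020 spots per array (1377 control spots and spots marked as outliers set aside), intensities were scaled to the 75th percentile of their array, values under 0.0344 (log2 -4.86) were raised to that floor, and log2 was taken. A probe was kept when measured on all 12 arrays and well above background on each array of 1 group or more (35690 of 39429). The brightest probe stood for a gene. Accessions were named through RefSeq GRCm38.p6. The 6 groups were fitted together with limma 3.58.1 in R 4.3.3, with Benjamini-Hochberg adjustment over 29546 genes. Sequences and figures were handled in Python. The limma fit was tested on simulated data (29546 genes, 200 of them changed in each KD). It called between 19% and 24% of genes changed by 1 on the log2 scale and between 52% and 61% of those changed by 2. There were 0 in the wrong direction and 5 to 12 calls among unchanged genes in each KD. The scaling, floor, filter and choice of probe before the fit were not tested, nor were deviations shared between arrays.

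The 9 members and the lists of pathway and marker genes were chosen with earlier results of these data known. Named are the 9 members, the 5 targeted genes, pathway genes called in any KD and, where fewer than 2 were called, the 2 with the lowest p, and 3 genes most like Bmp4, Id1 and any called member. Alternatives were quantile normalization, normexp (offset 50, on the median signal), the deposited table, other filters, floors and probe rules, the replicate number or slide as a block, 4 arrays only, array weights, a trended and robust prior, other thresholds and leaving out arrays.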

Additional observations from a re-analysis of the deposited data

Results flagged for a closer look

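The dimmer Smad1 probe (A_52_P65108), which does not stand for the gene, was 0.99 higher in Chd4 KD than in EGFP KD on the log2 scale, with both arrays above both control arrays. The values on each array are given above. The brighter probe differed by 0.08 there. Which transcripts each probe reads was not tested. Groups of 2 arrays are too small for a test of outlying arrays.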

How the results depend on the processing

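The call of Smad6 in Mbd3 KD held in 10 of 26 alternatives, with a negative sign in all 26. Of 45 member by KD differences 21 kept their sign in every alternative run. The lower floor, the filter for probes bright on all arrays and the trended and robust prior left the Smad6 estimate at -0.83. So did using only the 4 arrays, or leaving out an array of Tet1 or Mbd2 KD. The counts of signs thus rest on fewer separate estimates than alternatives. The member count in Mbd3 KD was 0, and the pathway count in Mbd3 KD also 0, under quantile normalization, normexp, a lower floor, the slide block, only the 4 arrays, the trended and robust prior, only probes bright on all arrays, and without the arrays that go against their labels (replicate 1 of Tet1 KD and of Mbd2 KD). The F-test over members then gave 0 as well in all of these but the 4 arrays, where it was not run. Array weights left the pathway count in Mbd3 KD at 0. Of all 29546 genes, Mbd3 KD had 225 called in the main fit and 95 with array weights. Quantile normalization called 128 of them, normexp 2, the lower floor 41, the slide block 57 and the trended and robust prior 64. Only probes bright on all arrays gave 93 of 22694. With only the 4 arrays 0 of all genes were called, so the members could not show a call there. The pathway count in Chd4 KD was 0 with normexp or only the 4 arrays, and 2 with the lower floor, the slide block, or without those replicate 1 arrays. Of all genes, Chd4 KD had 67 called with normexp, 0 with only the 4 arrays, 491 with the lower floor and 1296 with the slide block. The cause of these changes in count was not tested. Leaving out single arrays gave 0 to 1 members and 0 to 1 pathway genes in Mbd3 KD, 0 to 3 pathway genes in Chd4 KD and 0 to 1 members by the F-test. The Smad6 call was lost without either array of EGFP KD, Tet1 KD, Mbd3 KD or Mbd2 KD. The replicate numbers were not taken to pair the arrays, since 10 of 15 correlations of deviations, not each, were over 0.1 (-0.04 to 0.77). The highest 3, at 0.64, 0.71 and 0.77, were among Dnmt1, Mbd3 and Mbd2 KD. Their replicate 1 arrays lay on slide 1 and their replicate 2 arrays on slide 3. Tet1 KD, with both arrays on slide 2, gave -0.04 to 0.03 with Dnmt1, Mbd3, Mbd2 and Chd4 KD. EGFP KD with Chd4 KD gave -0.03. The main fit holds no term for the slide. With a replicate block Smad6 in Mbd3 KD kept its call (limma adjusted p = 0.037), and of all values it changed the call of Hey1 in Chd4 KD alone (limma adjusted p = 0.056).

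Without a filter, Chd4 KD against Mbd3 KD and Mbd3 KD against Mbd2 KD gave 1 member each, beside 464 and 202 of 32124 genes. In the deposited table the counts were 4 members and 10 pathway genes in Mbd3 KD, 5 and 7 in Chd4 KD, and 1, 2 and 1 pathway genes for Mbd2, Dnmt1 and Tet1 KD. Of all its genes, 46% were called in Mbd3 KD and 56.7% in Chd4 KD. For Mbd2, Dnmt1 and Tet1 KD the shares were 0.404%, 14.4% and 0.754%. It holds no EGFP KD columns, so the F-test and the comparisons between KDs were not run there. At an unadjusted p under 0.05 the counts were 3, 3 and 1 members for Mbd3, Chd4 and Tet1 KD. Of the 50 pathway genes they were 8, 9, 2, 4 and 3 for Mbd3, Chd4, Mbd2, Dnmt1 and Tet1 KD. The shares of all genes there were 9.66%, 12.8%, 2.06%, 4.67% and 2.85%. Members numbered 3 in Chd4 KD against Mbd3 KD (10.1% of all genes), 1 in Mbd3 KD against Mbd2 KD (6.87%) and 3 by the F-test. At an adjusted p under 0.1 the counts were 1 member in Chd4 KD, 2 in Chd4 KD against Mbd3 KD, 1 in Mbd3 KD against Mbd2 KD and 2 by the F-test. Over all 29546 genes the first 3 of these were 1477, 698 and 327.

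Differences that changed sign were uncalled. Normexp, under which the median of all genes lay between -0.40 and -0.26 (-0.033 to 0.085 in the main fit), gave Smad6 -0.33 in Dnmt1 KD, Bmpr1a -0.084, Smad1 -0.19, Id1 0.11 and Bmp7 -0.18 in Tet1 KD, Smad5 -0.27 and Id3 0.012 in Mbd3 KD, Bmpr1a -0.046, Smad1 -0.60, Smad5 -0.33 and Id1 0.24 in Mbd2 KD, and Smad1 -0.49 in Chd4 KD. Relative to the median of all genes these lay between -0.27 and 0.57. Quantile normalization gave Bmpr1a -0.055 and Id1 0.033 in Tet1 KD, Id1 0.030 in Mbd2 KD, and Bmp4 0.062 and Smad1 -0.031 in Chd4 KD. The deposited table gave Id4 0.000901 in Dnmt1 KD, Id1 0.011 in Tet1 KD, Smad5 -0.00318 in Mbd3 KD, Smad1 -0.015 and Id1 0.017 in Mbd2 KD, and Smad5 -0.00746 in Chd4 KD. The slide block gave Bmp4 -0.092 in Dnmt1 KD, Smad5 0.042 and Id1 0.068 in Tet1 KD, Smad1 0.22 and Smad5 -0.13 in Mbd3 KD, and Bmp4 -0.062, Smad5 -0.17 and Id1 0.064 in Mbd2 KD. Without those replicate 1 arrays, Id1 and Id4 were 0.17 and 0.22 in Tet1 KD, and Bmp4 and Smad1 -0.089 and -0.066 in Mbd2 KD.

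Leaving out single arrays, the signs changed within these ranges. In Dnmt1 KD Bmp4 ran from -0.21 to 0.26, Smad1 from -0.80 to 0.026 and Id3 from -0.49 to 0.058. In Tet1 KD Bmp4 ran from -0.16 to 0.20, Bmpr1a from -0.19 to 0.19, Smad5 from -0.18 to 0.047, Id1 from -0.29 to 0.17 and Id4 from -0.61 to 0.22. In Mbd3 KD Bmp4 ran from -0.041 to 0.32, Smad1 from -0.28 to 0.16 and Smad5 from -0.10 to 0.37. In Mbd2 KD Bmp4 ran from -0.13 to 0.23, Smad1 from -0.092 to 0.20, Smad5 from -0.20 to 0.39 and Id1 from -0.34 to 0.34. In Chd4 KD Bmp4 ran from -0.32 to 0.041, Bmpr1a from -0.36 to 0.088 and Smad1 from -0.10 to 0.27.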
